A study of Mus musculus with 10 samples.

Results

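The 10 genes described here encode cell adhesion proteins of epithelial and pluripotent cells: the cadherins Cdh1, Cdh2 and Cdh3, the claudins Cldn3, Cldn4, Cldn6 and Cldn7, the nectins Nectin2 and Nectin4, and the adhesion molecule Epcam. They were chosen by symbol from the gene table, where all 10 held a row of their own, out of 49622 gene rows, and all 10 passed the filter on low values that left 16056 genes for testing. They were picked with results of these comparisons known, so their values and differences are a description and carry no p-value.

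Mouse embryonic stem cells, kept in medium with LIF and the inhibitors PD0325901 and CHIR99021 (2i), were the source of all RNA. In the first experiment, cells of C57BL/6J background with the genotype Mof fl/fl and Cre-ER TM gave the groups WT and Mof-KO. Both groups carry the floxed Mof alleles and the tamoxifen-inducible Cre, and the protocol describes 3 days with ethanol or 100 nM 4-hydroxytamoxifen without saying which group had which. The labels describe no group with Cre and 4-hydroxytamoxifen but without floxed Mof. In the second experiment, E14tg2a cells received water (Control) or etomoxir, an inhibitor of fatty acid oxidation (ETO), for 4 days, or were grown for another 4 days without etomoxir after the treatment (Released). The labels describe no untreated group with the same total time as Released. Time in culture therefore cannot be told apart from treatment and release in the comparisons of Released. Each of the 5 groups had 2 libraries, described as biological duplicates; nothing more says how separate the cultures were, so p-values measure the spread between these libraries, which may be technical. In bulk RNA, fewer cells of a type and less RNA per cell cannot be told apart.

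Kat8, the gene of the histone acetyltransferase MOF, had 433 and 357 normalised counts in WT and 222 and 205 in Mof-KO, a log2 difference of -0.88 ± 0.11 (SE, adjusted p = 3.64e-05, limma). Transcripts of Kat8 were therefore lower but present in the libraries labelled Mof-KO, and the gene-level table does not show which part of the gene they came from. In E14tg2a cells Kat8 rose in ETO by 0.53 ± 0.11 on the log2 scale (adjusted p = 0.000796, limma). The 10 libraries held between 9783470 and 16778400 estimated reads, and 3 reads, used as the floor for a gene at 0, were worth 2.07 to 4.04 normalised counts. Normalised counts are the deposited values, most of which are multiples of a step that differs between libraries and was taken as the worth of 1 read, and log2 differences below are on the scale of log2(normalised count + 1).

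Classical cadherins are calcium-dependent adhesion proteins that hold neighbouring cells together at adherens junctions and bind catenins inside the cell. Nectins start such contacts, claudins form the strands that seal tight junctions, and Epcam is a membrane glycoprotein that associates with claudins, Cldn7 in particular. In mouse embryonic stem cells E-cadherin, the product of Cdh1, holds the compact colonies together, and Epcam is a surface marker of the undifferentiated state.

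Upstream sequences are shown because several of the genes stood higher together with etomoxir, and because the E-box CAGGTG is the sequence bound by the Snail and Zeb repressors of epithelial genes. RefSeq promoters on GRCm38.p6 matched 7 of the 10 genes, with 8 upstream sequences of 250 bases; Cdh1 and Cdh3 had no entry and Cdh2 was not used. Capitals mark matches to CAGGTG or its reverse complement CACCTG, and to the GC box GGGCGG or its reverse complement CCGCCC. The 3 sequences below, read 5′ to 3′ on the strand of the gene, are those of Epcam (chr17:87635729-87635978, plus strand), with E-boxes at -187 and -19 from the start, and of the neighbouring genes Cldn4 (chr5:134946935-134947184, minus strand) and Cldn3 (chr5:134985964-134986213, plus strand), of which only the former holds the E-box.
Epcam: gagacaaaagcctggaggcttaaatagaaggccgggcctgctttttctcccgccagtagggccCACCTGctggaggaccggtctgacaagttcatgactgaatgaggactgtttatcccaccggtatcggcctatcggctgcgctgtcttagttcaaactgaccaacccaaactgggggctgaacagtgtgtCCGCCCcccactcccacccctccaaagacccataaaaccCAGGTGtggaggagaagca
Cldn4: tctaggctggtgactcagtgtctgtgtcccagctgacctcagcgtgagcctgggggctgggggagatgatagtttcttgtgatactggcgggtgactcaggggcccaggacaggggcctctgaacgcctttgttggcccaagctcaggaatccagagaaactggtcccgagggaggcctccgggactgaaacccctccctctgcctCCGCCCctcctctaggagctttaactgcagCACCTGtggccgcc
Cldn3: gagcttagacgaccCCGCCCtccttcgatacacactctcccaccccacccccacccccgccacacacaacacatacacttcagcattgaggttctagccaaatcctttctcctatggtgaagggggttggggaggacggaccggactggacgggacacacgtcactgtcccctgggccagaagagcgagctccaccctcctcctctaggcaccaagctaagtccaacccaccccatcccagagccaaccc

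The E-box matches of the other genes are shown with 10 bases on either side, again in the direction of the gene. They lie at chr17:23679262-23679287 for Cldn6, at chr11:69965314-69965339 and chr11:69965354-69965379 upstream of the second start of Cldn7, and at chr7:19749611-19749636 for Nectin2, which is on the minus strand.
Cldn6: gaaacgcacgCAGGTGgctatcgccg
Cldn7, site at -97: tcttcctcttCACCTGgacgaggagg
Cldn7, site at -57: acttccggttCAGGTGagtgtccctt
Nectin2: tggggccagaCAGGTGtgggacgcgg

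CAGGTG was found, on either strand, upstream of a RefSeq start in 5 of the 7 genes (Epcam, Cldn4, Cldn6, Cldn7 and Nectin2, not Cldn3 or Nectin4). It was found in 17.2% of all 32851 RefSeq promoter windows of the same length, a share per window and not per gene. The sites of Cldn6, Cldn7 and Nectin2 lie inside the GENCODE spans given below, because the RefSeq starts used lie further into these genes. The window at the outer start of Cldn7 held no match. GGGCGG was found upstream of 6 of the 7, against 32.7% of all windows. The grainyhead-like motif AACCGGTT was found in none of the 7 and in 0.116% of all windows, and TATAAA in none and in 12.4%. The matches in one gene's windows do not overlap each other, and a match is a description of the letters only. The E-box was found upstream of genes that stood higher with etomoxir and of Nectin2, which stood lower. Any part of the matches in these differences was not tested.

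**Figure D1:**
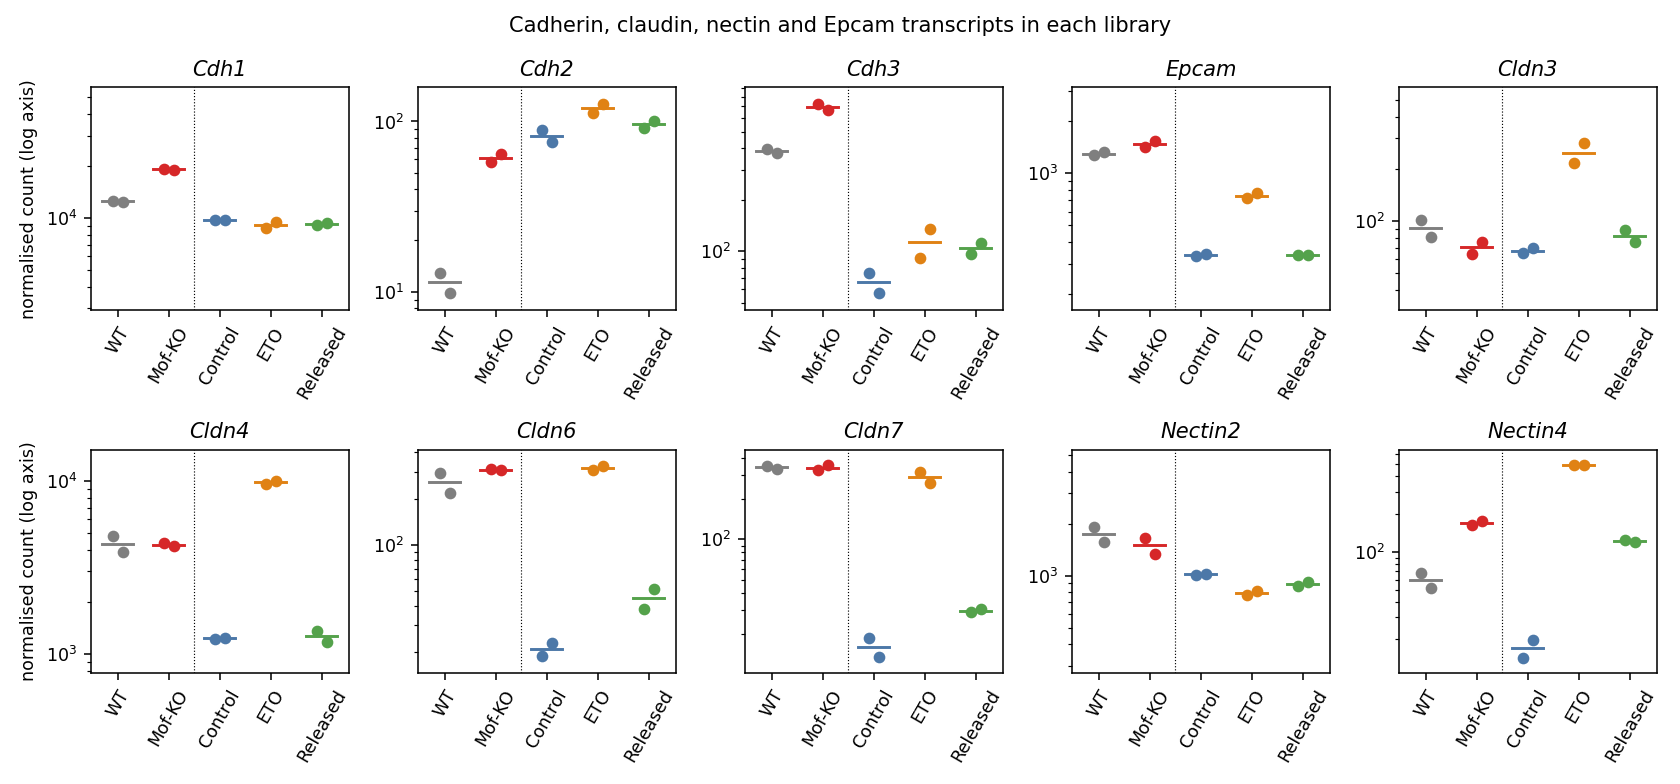
Normalised counts (vertical axis, log scale) of the 10 genes in each library of the 5 groups; points are libraries, horizontal bars the group means, and the dotted line separates the experiments. In the second experiment Nectin4, Cldn7, Cldn6 and Cldn4 form a peak in ETO that falls back in Released. Cdh1 lies between 8768 and 9710.2 in all 6 libraries of that experiment.

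Cdh1, on chromosome 8 (GRCm38, 106603351 to 106670246, plus strand), encodes E-cadherin. It had 12509.7 and 12482 normalised counts in WT and 19276.5 and 19038 in Mof-KO. Both Mof-KO libraries lay above both WT libraries, with a ratio of means of 1.53 and a log2 difference of 0.62 ± 0.05 (SE). The E14tg2a cells had 9693 and 9710.2 in Control, 8768 and 9450.3 in ETO, then 9152 and 9382 in Released. ETO was lower than Control by less than the other members moved, with a log2 difference of -0.09 and a 95% interval from -0.20 to 0.01, and the sign turned to 0.08 when total signal set the scale. The difference was called when each experiment was fitted alone and without ETO replicate 2. Released against Control gave -0.07, with an interval from -0.17 to 0.04.

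Cdh2, on chromosome 18 (16588877 to 16809246, minus strand), encodes N-cadherin, typical of neural and mesenchymal cells. WT held the fewest transcripts, with 13.0 and 9.82 normalised counts, which correspond to 14 and 10 reads. Mof-KO had 57.9 and 64.1, a ratio of means of 5.36 and a log2 difference of 2.33 ± 0.21, so that the 2 groups were far apart. Control had 89.2 and 75.8, ETO 112 and 127, and Released 91.6 and 101. ETO lay above Control by 0.53 ± 0.21 on the log2 scale, a difference that lost its call when any library of the second experiment was left out, and Released against Control was 0.22, with an interval from -0.23 to 0.67. Cdh2 was the only member lower in WT than in Control.

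Cdh3, the neighbour of Cdh1 on chromosome 8 (106510891 to 106557297, plus strand, 46053 bases away), encodes P-cadherin, a cadherin of placenta and basal epithelia. It had 394 and 374 normalised counts in WT and 725 and 672 in Mof-KO, a ratio of 1.82 and a log2 difference of 0.86 ± 0.18. In E14tg2a cells it was scarcer, with 74.9 and 57.1 in Control, 90.9 and 135 in ETO, then 97.1 and 111 in Released. ETO and Released overlapped, and both lay above Control, by 0.75 ± 0.18 and 0.66 ± 0.18. The Released difference lost its call without Control replicate 2, without either Released library, and in FPKM. All 3 cadherins thus stood higher in Mof-KO than in WT, with no overlap between libraries. Of all tested genes 64.6% had no overlap there, in either direction. Gm10073, the annotated gene between Cdh3 and Cdh1, had 1018 and 894 normalised counts in WT and 1137 and 1042 in Mof-KO.

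Cldn4, on chromosome 5 (134945119 to 134946934, minus strand), encodes a sealing claudin of simple epithelia and was the most abundant claudin. It had 4782 and 3878 normalised counts in WT and 4401 and 4181 in Mof-KO. These overlapped, with a log2 difference of -0.01 and a 95% interval from -0.19 to 0.18. Control had 1226 and 1233, ETO 9619 and 10067, and Released 1355 and 1178. ETO stood 8.01-fold above Control (log2 difference 3.00 ± 0.09), and Released overlapped Control (0.04, interval from -0.15 to 0.22). In ETO Cldn4 exceeded its level in WT as well.

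Cldn3 lies 39279 bases from Cldn4 on the opposite strand (134986214 to 134987472, plus strand) and encodes another sealing claudin. It had 101 and 80.5 normalised counts in WT and 64.6 and 75.9 in Mof-KO. Mof-KO was the lower, by -0.36 on the log2 scale, but the interval ran from -0.76 to 0.04, and it was called only with total signal as the scale, at -0.52. Control had 64.9 and 69.5, ETO 215 and 281, and Released 88.1 and 74.99. The ETO libraries stood 3.70-fold above Control (1.86 ± 0.19), less than the neighbouring Cldn4, and Released was 0.27 above Control, with an interval from -0.13 to 0.67. Its exons share 40 bases with Wbscr25 on the other strand, whose level reached at most 5.19 normalised counts in the 10 libraries.

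Cldn6, on chromosome 17 (23679249 to 23682446, plus strand), encodes a claudin of embryonic epithelia and pluripotent cells. It had 294 and 218 normalised counts in WT and 311 and 305 in Mof-KO, a log2 difference of 0.28 with an interval from -0.12 to 0.68. In Control it was at 18.7 and 22.8, which correspond to 17 and 22 reads. ETO had 308 and 327, 15.3-fold above Control (3.88 ± 0.19) and close to the level of the first cell line. Released had 37.9 and 51.6, far below ETO (-2.82 ± 0.19) and above Control in both libraries (1.06 ± 0.19). Cldn9 lies on the opposite strand, with its 3′ end 137 bases beyond Cldn6, and showed no such peak, with 0 and 1.66 normalised counts in ETO, at or under the floor.

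Cldn7, on chromosome 11 (69964779 to 69967885, plus strand), encodes the claudin that binds Epcam. It had 349.8 and 332.8 normalised counts in WT and 324 and 353 in Mof-KO, which overlapped (log2 difference -0.01, interval from -0.38 to 0.36). Control had 18.7 and 13.5, from 17 and 13 reads, ETO 313 and 261, and Released 28.9 and 30.5. ETO stood 17.8-fold above Control (4.08 ± 0.17), and Released was lower than ETO by -3.22 ± 0.17. Released lay above Control by 0.86 ± 0.17, a difference that lost its call without Control replicate 2 and in FPKM.

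Among the 4 claudins the ratio of ETO to Control was highest for Cldn7 and Cldn6, followed by Cldn4 and then Cldn3. Cldn7 and Cldn6 rest on few Control reads and their order was not resolved, with 95% intervals of the log2 difference from 3.71 to 4.46 and from 3.48 to 4.27. None of the 4 was called between Mof-KO and WT on the deposited scale, and the difference between the 2 changes, each in its own cell line, was -4.10 ± 0.25 for Cldn7, -3.60 ± 0.26 for Cldn6, -3.01 ± 0.12 for Cldn4 and -2.22 ± 0.27 for Cldn3. The 2 experiments differed in cell line as well as in treatment.

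Epcam, on chromosome 17 (87635979 to 87651129, plus strand), had 1271 and 1335 normalised counts in WT and 1426 and 1538 in Mof-KO. The Mof-KO libraries lay above the WT libraries, by 0.19 on the log2 scale with an interval from 0.02 to 0.35, and the difference was not called after adjustment over all genes. Control had 334 and 341, ETO 717 and 771, and Released 336 and 337. ETO stood 2.20-fold above Control (1.14 ± 0.08), and Released overlapped Control, with a difference of -0.00 and an interval from -0.17 to 0.17. Epcam and Cldn4 were the members whose Released libraries overlapped those of Control, where 61.7% of all tested genes did not overlap. Released libraries of Cldn3 and Cdh2 lay above Control without a call. Cdh3, Cldn6, Cldn7 and Nectin4 were called higher, though Cdh3 and Cldn7 not under every alternative.

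Nectin4, on chromosome 1 (171370099 to 171388598, plus strand), encodes an epithelial nectin of placenta and skin and moved in both experiments. It had 67.6 and 51.1 normalised counts in WT and 163 and 175 in Mof-KO, a ratio of 2.85 (1.51 ± 0.19). Control had 14.3 and 19.7, from 13 and 19 reads, and ETO 496 and 492. ETO stood 29.1-fold above Control (4.80 ± 0.19), the largest ratio of the 10 genes. Released had 125 and 119.5, below ETO (-2.005 ± 0.19) and 7.20-fold above Control (2.79 ± 0.19), also the largest such ratio of the 10.

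Nectin2, on chromosome 7 (19716644 to 19750483, minus strand), encodes a broadly expressed nectin and, like Cdh1, had both ETO libraries below both Control libraries. It had 1912 and 1554 normalised counts in WT and 1656 and 1341 in Mof-KO, which overlapped (log2 difference -0.21, interval from -0.43 to 0.01). Control had 1014 and 1026, ETO 770.0 and 815, and Released 865 and 914. ETO was lower than Control by -0.36 ± 0.10, a difference that lost its call without ETO replicate 1, with total signal as the scale and in FPKM. Mof-KO against WT was called with each of the 3 other scalings, without WT replicate 2 and without Mof-KO replicate 1, and both Released comparisons were called when each experiment was fitted alone. Nectin2 shares 135 exon bases with Gm20512 on the other strand, which reached at most 6.75 normalised counts; whether the counting used strand is not given in the sources used here.

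**Figure D2:**
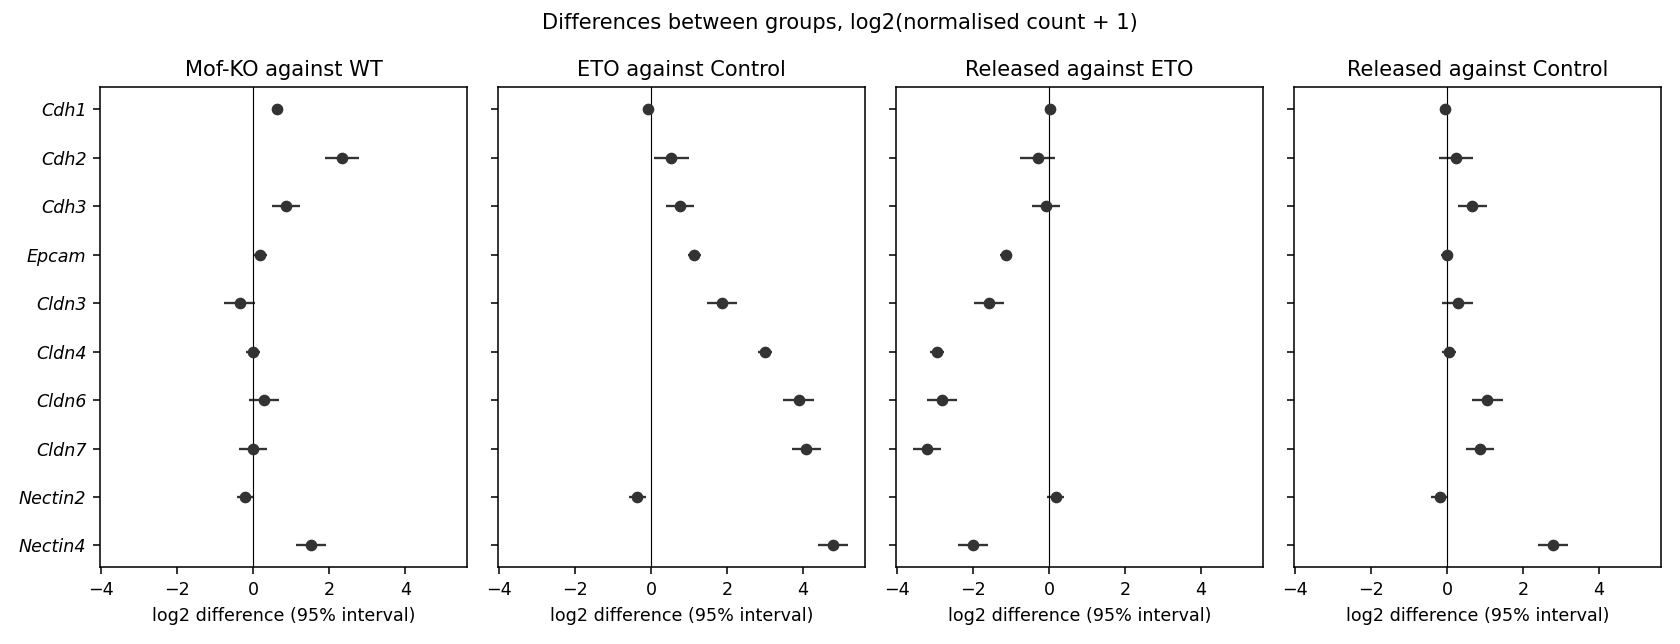
Log2 differences (horizontal axis) of the 10 genes in the 4 comparisons; points are limma estimates from 2 libraries a group and bars their 95% intervals, with no test. In ETO against Control the points run from -0.36 for Nectin2 to 4.80 for Nectin4, and in Mof-KO against WT from -0.36 for Cldn3 to 2.33 for Cdh2.

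Of the 10 genes, 4 were called higher and 0 lower in Mof-KO against WT, where 37.9% of all tested genes were called, 24.6% higher and 13.3% lower. In ETO against Control 8 members were called higher and 1 lower, beside 60.8% of all genes, 26.8% higher and 34.0% lower. In Released against ETO 0 members were called higher and 6 lower, beside 57.7% of all genes, 33.1% higher and 24.6% lower. In Released against Control 4 members were called higher (Cdh3, Cldn6, Cldn7 and Nectin4) and 0 lower, beside 12.5% of all genes, 7.03% higher and 5.51% lower. For the difference between the Mof-KO and ETO changes, 2 members were called higher (Cdh1 and Cdh2) and 6 lower, beside 54.5% of all genes, 32.3% higher and 22.2% lower. Libraries of the 2 groups did not overlap for 6 members higher and 1 lower in Mof-KO against WT (64.6% of all tested genes in either direction), for 8 higher and 2 lower in ETO against Control (81.6%), for 1 higher and 7 lower in Released against ETO (81.0%), and for 6 higher and 2 lower in Released against Control (61.7%). Nothing is read from these counts, since the choice of the genes used the same contrasts.

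Levels of different genes were compared per transcript length, in FPKM. Cdh1 was highest in WT, Mof-KO, Control and Released, with group means of 202, 306, 156 and 148 FPKM, followed by Cldn4 in all 4 groups. In ETO the order of these genes was turned, with Cldn4 at 409 and Cdh1 at 145 FPKM and no overlap. Cdh2 was lowest in WT (0.195) and in Mof-KO (1.13), Nectin4 in Control (0.377), and Cdh3 in ETO (1.81) and Released (1.67), where Cdh2 and Cdh3 overlapped. In WT the pairs Nectin2 and Epcam, and Cdh3 and Cldn3, overlapped in level. In ETO the level of Cldn7 overlapped that of Epcam, and Cldn6 that of Cldn3. The ratio of Cdh1 to Cdh2 in FPKM was 842 and 1359 in the WT libraries, 284 and 259 in Mof-KO, 94.6 and 112 in Control, 69.2 and 64.6 in ETO, then 87.5 and 81.2 in Released, so that E-cadherin transcripts exceeded N-cadherin transcripts in all 10 libraries. FPKM per 100 normalised counts was not constant between libraries for Cldn7 (from 6.87 to 20.6), Nectin2 (from 3.24 to 4.596) and Cdh2 (from 1.501 in WT replicate 2 to 1.87), so these genes, and the ratios of Cdh1 to Cdh2, differ between the measures.

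**Figure D3:**
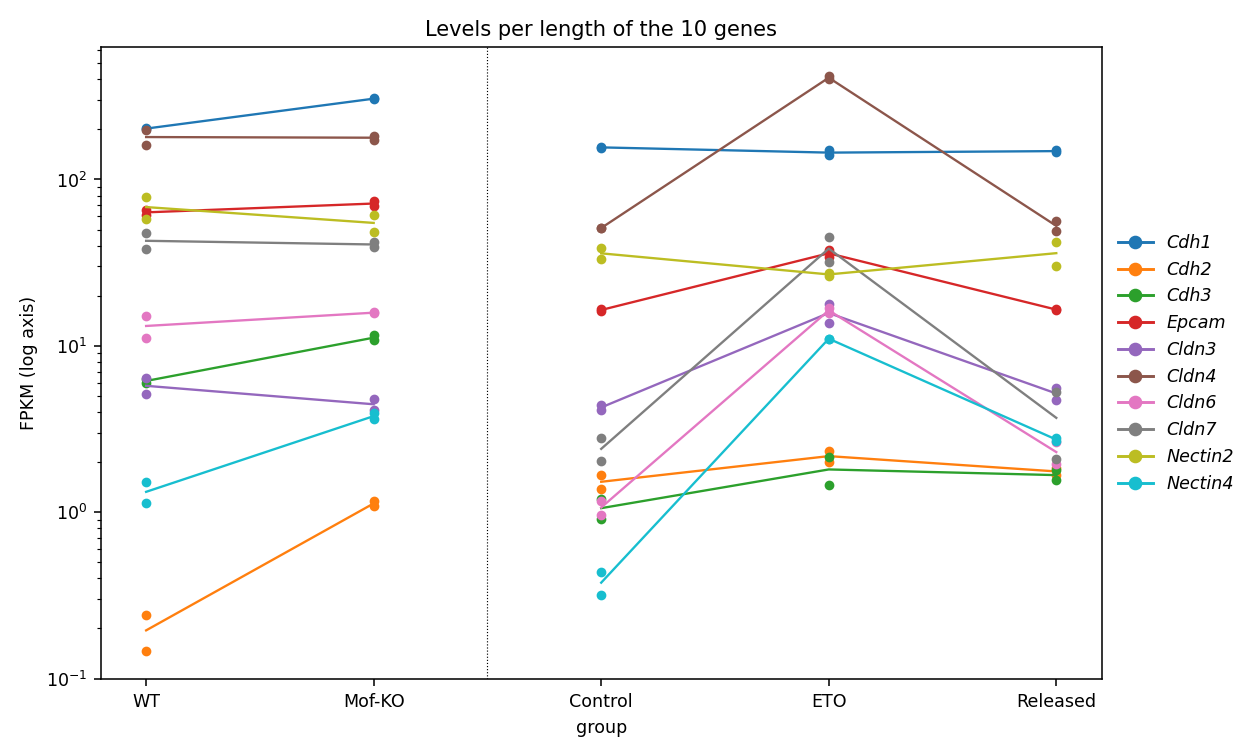
FPKM (vertical axis, log scale) of the 10 genes by group (horizontal axis); points are libraries and lines join the group means within an experiment. Cldn4 crosses Cdh1 in ETO, where the means are 409 and 145, and Cdh2 is the lowest line in WT at 0.195.

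WT and Control, the reference groups of the 2 experiments, differed in these genes. WT exceeded Control 21.2-fold for Cldn7, 12.3-fold for Cldn6, 5.82-fold for Cdh3, 3.86-fold for Epcam, 3.52-fold for Cldn4 and 3.49-fold for Nectin4. The ratio was 1.70 for Nectin2, 1.35 for Cldn3, 1.29 for Cdh1 and 0.138 for Cdh2. Cell line, experiment, batch and any vehicle or 4-hydroxytamoxifen given to the first line cannot be told apart here, and these ratios were not tested.

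Across the 10 libraries, taken as 5 groups of 2 libraries from 2 cell lines, the genes most like Cdh1 by Pearson's r of log2 values were Dmtf1 (0.991), Trim26 (0.991) and Rae1 (0.990), among 10878 genes. Those most like Epcam were Rell1 (0.997), Clasp1 (0.996) and Prosc (0.995). Those most like Cldn6 were Tbc1d2 (0.990), Krt7 (0.990) and Slc12a4 (0.989), and those most like Cdh2 were Smurf1 (0.980), Mme (0.978) and Hras (0.977). Among the members themselves Cldn7 and Cldn6 had r = 0.985, Cldn7 and Epcam 0.933, and Cdh3 and Cdh1 0.921. These values describe shared patterns over few groups.

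Another 139 genes in 10 lists, covering components of the junctions, regulators of epithelial and mesenchymal genes, and sheddases, were followed; 96 of them were tested and adjusted with all 16056 genes. In ETO against Control 50 of the 96 rose and 22 fell, and their median log2 difference was 0.31, beside -0.09 over all tested genes. In Released against ETO 26 rose and 46 fell (median -0.30, all genes 0.10), and in Released against Control 19 rose and 6 fell (median 0.10, all genes 0.01). In Mof-KO against WT 40 rose and 6 fell (median 0.21, all genes 0.08). This last split depended on the scale: 28 rose and 7 fell with median-of-ratios factors or with trimmed-mean factors, and 19 rose and 11 fell with total signal. Of all tested genes called in that comparison 64.8% were higher on the deposited scale and 37.0% with total signal, against 44.1% and 57.0% in ETO against Control. Of the 96 genes, 5 passed the filter through 1 group alone. Without them 49 of 91 rose and 21 fell in ETO against Control, and 39 rose and 5 fell in Mof-KO against WT. The counts of each list below stand beside the shares of all tested genes called. These were 60.8% in ETO against Control, 37.9% in Mof-KO against WT, 57.7% in Released against ETO and 12.5% in Released against Control.

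The desmosome, a spot-like junction anchored to keratin filaments, had 8 of 9 tested genes risen and 1 fallen in ETO, with a median log2 difference of 2.88. Dsc2, a desmosomal cadherin, had 12.1 and 9.34 normalised counts in Control, 398 and 383 in ETO, then 29.6 and 31.6 in Released, and rose by 5.07 ± 0.33 (adjusted p = 3.17e-09, limma). Dsp, the plakin that links desmosomes to keratin, had 222 and 218 in Control and 1473 and 1799 in ETO, and rose by 2.88 ± 0.10 (adjusted p = 5.37e-12, limma). In Mof-KO 3 of the 9 rose and 0 fell, where 37.9% of all tested genes were called, and with total signal as the scale 2 rose and 2 fell. The largest difference there was that of Perp, a membrane protein of desmosomes, with 49.98 and 64.8 in WT and 312 and 299.8 in Mof-KO (2.41 ± 0.12, adjusted p = 1.01e-08, limma). Perp also rose in ETO, from 222 and 238 in Control to 1695 and 1818 (2.93 ± 0.12, adjusted p = 2.25e-11, limma). The Mof-KO and ETO changes of Dsp differed by -2.72 ± 0.14 (adjusted p = 1.53e-09, limma).

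Of the 8 relatives and partners of Epcam, all rose in ETO and 7 fell again in Released against ETO. The membrane serine protease gene Prss8 had 63.7 and 47.5 in Control and 432 and 556 in ETO, and rose by 3.13 ± 0.18 (adjusted p = 1.5e-09, limma). St14, the gene of matriptase, which cleaves Epcam, rose by 1.95 ± 0.08 (adjusted p = 3.96e-11), and its inhibitors Spint1 and Spint2 rose by 1.22 ± 0.07 and 1.38 ± 0.07 (adjusted p = 4.26e-10 and 2.8e-10, limma). In Mof-KO 6 of the 8 rose, among them Prss8, from 524 and 432 to 931 and 1003 (1.02 ± 0.18, adjusted p = 0.000563, limma). The Mof-KO count was 5 with median-of-ratios or trimmed-mean factors and 4 with total signal as the scale.

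Of 21 tight junction scaffold and polarity genes, 14 rose and 3 fell in ETO, and 2 rose and 13 fell in Released against ETO. Patj, a scaffold of the Crumbs complex, had 119 and 109 normalised counts in Control, 759 and 749.7 in ETO, then 119 and 117 in Released (2.72 ± 0.11 in ETO against Control, adjusted p = 3.04e-11, limma). Crb3, the epithelial Crumbs protein of that complex, rose by 2.22 ± 0.13 (adjusted p = 1.18e-09) and the polarity scaffold gene Pard3 by 1.31 ± 0.06 (adjusted p = 1.59e-10, limma). In Mof-KO 9 rose and 1 fell; Tjp3, the scaffold ZO-3, rose by 0.75 ± 0.14 (adjusted p = 0.0007, limma). With total signal as the scale these Mof-KO counts were 3 and 2.

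The list of catenins, which join cadherins to actin, and their partners had a median log2 difference of -0.03 in ETO, beside -0.09 over all tested genes. Of 16 genes of this list 4 rose and 6 fell in ETO, which became 7 and 3 with total signal as the scale. On the deposited scale 62.5% of the list were called, near the 60.8% of all tested genes. The row of Ctnnb1 and Mir7090, which holds beta-catenin, had 12955 and 12697 normalised counts in Control and 12741 and 12808 in ETO, with a log2 difference whose 95% interval ran from -0.11 to 0.09. Lima1, the actin-binding protein EPLIN, fell from 5825 and 5981 to 2753 and 2619 (-1.14 ± 0.05, adjusted p = 1.12e-10, limma). In Mof-KO 6 rose and 2 fell, which became 2 and 3 with total signal; Ajuba, a LIM protein of adherens junctions, rose from 605 and 609.7 to 1179.9 and 1159.8 (0.94 ± 0.07, adjusted p = 2.98e-07, limma). Ctnna2, the neural alpha-catenin, had 0 and 0.982 normalised counts in WT and 24.2 and 22.3 in Mof-KO. It is among the 6 risen genes but passed the filter on low values through Mof-KO alone, so its call adds nothing to its values.

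Of the other families, 4 cadherins, 6 claudins and 5 nectins and nectin-like genes passed the filter on low values. Of the 4 tested cadherins 1 rose and 1 fell in ETO: Cdh4, R-cadherin, had 49.5 and 44.6 normalised counts in Control, 289 and 316 in ETO, then 131 and 132 in Released (2.66 ± 0.18 in ETO against Control, adjusted p = 4.94e-09, limma). Of the 6 tested claudins 1 rose and 1 fell in ETO. The risen one, Cldn1, passed that filter through ETO alone, so its call adds nothing to its values: it was at 0 in both Control libraries and at 22.7 and 25.7 in ETO, at least 6.88-fold higher when the floor of 3 reads per library stands for Control. Of the 5 tested nectins and nectin-like genes 2 rose and 2 fell in ETO: Pvr, the nectin-like receptor CD155, rose from 504 and 513 to 1149.5 and 1251 (1.24 ± 0.07, adjusted p = 1.15e-09, limma), and Nectin3, a partner of nectins in trans, fell by -0.52 ± 0.10 (adjusted p = 0.000478, limma, lost in FPKM). In Mof-KO Nectin1 and Nectin3 rose by 0.52 ± 0.09 and 0.53 ± 0.10 (adjusted p = 0.000279 and 0.00106, limma), both lost in FPKM. The Mof-KO and ETO changes of Nectin3 differed by 1.04 ± 0.15 (adjusted p = 2.4e-05, limma).

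**Figure D4:**
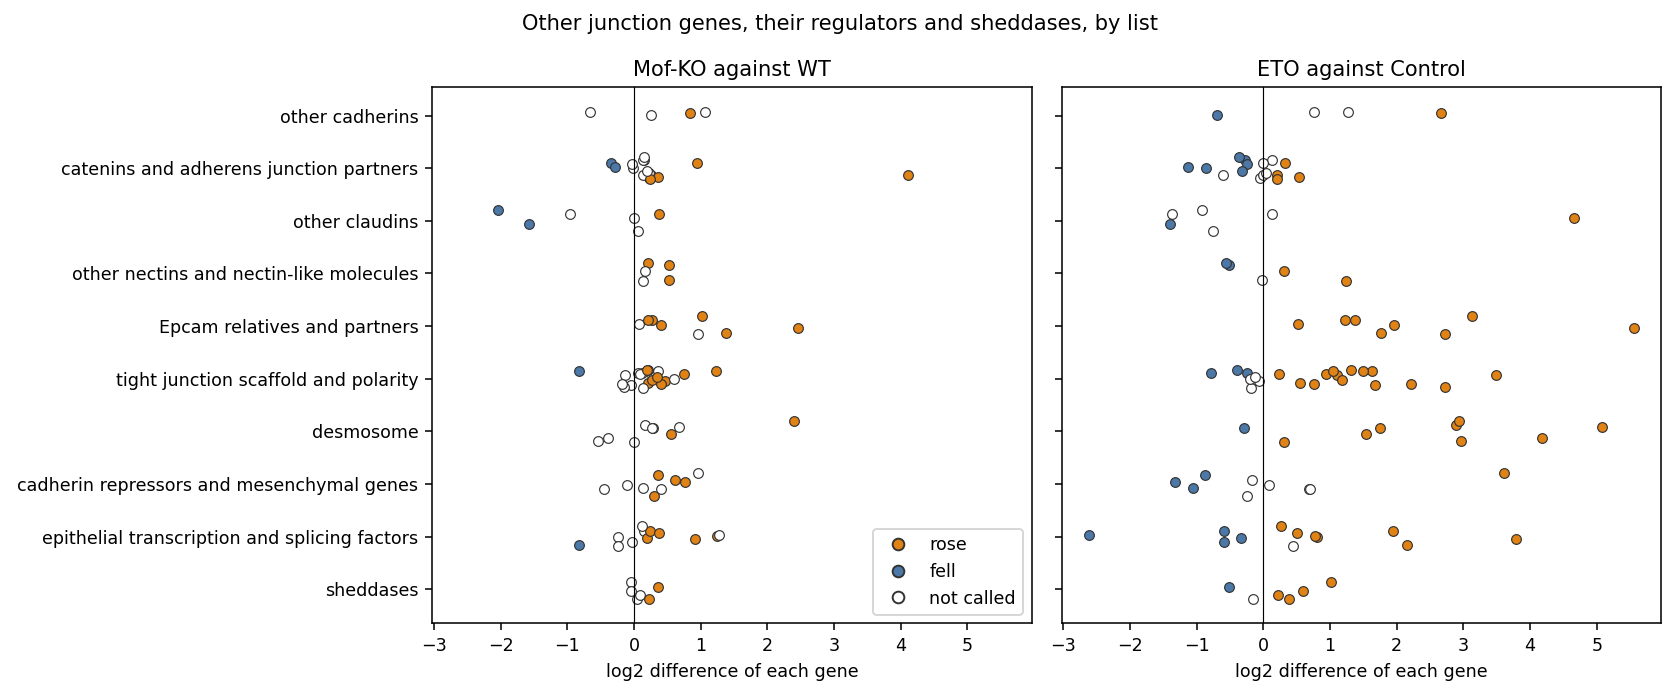
Log2 differences (horizontal axis) of 96 other junction genes, regulators and sheddases in 10 lists (vertical axis) for Mof-KO against WT and ETO against Control; orange points rose, blue points fell, and open points were not called at an adjusted p under 0.05 (limma). Desmosome genes reach 5.07 in ETO; for genes at or near 0 in a group, such as Cldn1, the fitted value depends on the added count.

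Regulators of these genes moved in both directions. Of 12 tested epithelial transcription and splicing factors 7 rose and 4 fell in ETO. The fallen ones include a gene that passed the filter on low values through Control alone, so its call adds nothing to its values. Grhl2, a grainyhead-like activator of Cdh1 and claudin genes, had 267 and 278 normalised counts in Control, 1207 and 1231 in ETO, then 401 and 335 in Released, and rose by 2.16 ± 0.11 (adjusted p = 4.05e-10, limma). In the first experiment it fell, from 143 and 154 in WT to 87.4 and 79.8 in Mof-KO (-0.82 ± 0.11, adjusted p = 6.59e-05, limma), and the 2 changes differed by -2.98 ± 0.16 (adjusted p = 2.27e-09, limma). Grhl3 rose in ETO by 1.94 ± 0.09 (adjusted p = 6.02e-11, limma). Esrp1, an epithelial splicing regulator, had 9.91 and 8.30 in Control, 157 and 121 in ETO, then 20.7 and 21.1 in Released (3.79 ± 0.19 in ETO, adjusted p = 1.77e-10, limma), and 261 and 245 in WT against 448 and 511 in Mof-KO (0.92 ± 0.19, adjusted p = 0.00136, limma, lost in FPKM). Klf4, which also maintains naive pluripotency, fell in ETO by -0.60 ± 0.07 (adjusted p = 2.68e-06, limma).

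Of 9 tested cadherin repressors and mesenchymal genes 1 rose and 3 fell in ETO (44.4% called, beside 60.8% of all tested genes). Vimentin (Vim), the mesenchymal intermediate filament, had 6489 and 6496 normalised counts in Control, 2576 and 2587 in ETO, then 4798 and 4725 in Released, and fell by -1.33 ± 0.06 (adjusted p = 3.04e-11, limma). It rose in Mof-KO, from 1738 and 1692.5 in WT to 2828 and 2983 (0.76 ± 0.06, adjusted p = 2.98e-07, limma), and the 2 changes differed by 2.09 ± 0.08 (adjusted p = 1.18e-10, limma). The E-protein gene Tcf3, whose product binds E-boxes, fell in ETO by -1.06 ± 0.08 and Tcf4 by -0.87 ± 0.07 (adjusted p = 3.06e-08 and 2.63e-08, limma). The row of Mir5129 and Zeb2 had 9.91 and 5.19 normalised counts in Control and 92.9 and 105 in ETO (3.61 ± 0.42, adjusted p = 2.49e-06, limma), a call lost in FPKM (adjusted p = 0.409). Snai1 had 62.7 and 88.2 in Control and 63.3 and 68.1 in ETO, and Zeb1 428 and 395 against 349.9 and 346; neither was called (adjusted p = 0.506 and 0.0569, limma). Snai2 (0.69 ± 0.42), Twist1 (0.70 ± 0.43) and Fn1 (0.09 ± 0.08) were not called in ETO either (adjusted p = 0.173, 0.17 and 0.347, limma). In Mof-KO Snai1 and Zeb1 had adjusted p = 0.0389 and 0.0363, with differences of 0.62 ± 0.22 and 0.29 ± 0.10, and both calls were lost under every other scaling.

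Of the 6 sheddase genes, whose products cleave cadherins or Epcam at the membrane, 4 rose and 1 fell in ETO. Adam15 rose by 1.01 ± 0.08 (adjusted p = 4.3e-08, limma), and Adam17 fell by -0.52 ± 0.09 (adjusted p = 0.000216, limma). In Mof-KO 2 of the 6 rose, and 0 did with total signal as the scale.

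After release, Vim was lower than in Control by -0.45 ± 0.06 (adjusted p = 0.000115, limma), a call lost in FPKM. Perp was higher by 1.22 ± 0.12 (adjusted p = 1.17e-05), Cdh4 by 1.47 ± 0.18 (adjusted p = 9.54e-05) and Esrp1 by 1.12 ± 0.19 (adjusted p = 0.00117, limma), of which Cdh4 and Esrp1 were lost in FPKM. The count of 19 risen genes in Released against Control fell to 11 without Control replicate 1, 12 without Control replicate 2, and 10 without either Released library, and the 6 fallen genes became 3 in each of these cases.

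Marker lists for embryonic stem cells and trophectoderm shifted alongside the etomoxir differences of the adhesion genes. The part of any cell type list in these differences was not tested. None of the 10 embryonic stem cell markers was at 0 in any group. All 10 fell in ETO, and their summed level was 67948 to 68009 normalised counts in Control, 41291 to 43207 in ETO and 68413 to 68574 in Released. Of 8 tested trophectoderm markers 6 rose and 2 fell, with sums of 1456 to 1593 in Control, 6133 to 6511 in ETO and 2164 to 2274 in Released. Most of that sum in ETO was keratin, with 2116 and 2334 for Krt8 and 2501 and 2618 for Krt18. Among the factors of the list, Cdx2 was at 61.6 and 35.3 in Control and at 5.93 and 7.47 in ETO, and Tead4 at 1179 and 1074 and at 904 and 889. Gata2 was at 17.6 and 20.8 in Control and at 128 and 119.6 in ETO, the row of 9230102O04Rik and Gata3 at 20.9 and 17.6 and at 73.1 and 101, and Ascl2 at 27.5 and 21.8 and at 90.9 and 100.5. Of 8 tested primitive endoderm markers 4 rose and 1 fell, with sums of 2308 to 2408 in Control and 2258 to 2601 in ETO. Neural markers summed to 285 to 317 in Control and 779.6 to 808 in ETO, with 1 of 4 risen. Most of that sum was Nes, at 198 and 188 in Control and at 689 and 683 in ETO, whereas Map2 was at 78.2 and 70.6 and at 67.2 and 52.3. Fibroblast markers summed to 1833 to 1851 in Control and 746 to 826 in ETO, with 1 of 5 risen and 2 fallen. Most of that sum was Fbln1, at 1745 and 1728 and at 556 and 642, whereas Col1a1 was at 39.6 and 40.5 and at 152 and 154. In Mof-KO the embryonic stem cell markers had 2 risen and 2 fallen of 10 (40% called, near the 37.9% of all tested genes), and 2 risen and 6 fallen with total signal as the scale. Their sums were 68591 to 69959 in WT and 63352 to 64185 in Mof-KO. In the same comparison 0 of 8 trophectoderm markers were called, with Cdx2 and Hand1 at 0 in all 4 libraries.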

How the data were processed

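Single-end RNA-seq libraries from 10 samples were used, 2 in each of 5 groups. Reads were mapped with TopHat2 (version 2.1.1) to mm10, with SAMtools (version 1.5) also named, per the submitters' processing notes; the program behind the gene tables and its strand setting are not given in the sources used here. The authors deposited 2 gene tables. The first is named as counts in the deposited table but holds a signal with decimals, called normalised counts here; how the authors scaled it is not given in the sources used here. In each library 84.4% to 85.6% of values were whole multiples, within 0.1, of a single step, taken as the worth of 1 read; the others were not, so no count model was fitted. The second holds FPKM values, as deposited by the authors, and was used to compare levels between genes. Rows with the same name were summed, and rows that merge several genes were kept under their joint name.

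Group means were fitted to log2(normalised count + 1) over all 10 libraries with limma (version 3.58.1, R version 4.3.3; intensity trend, robust), for the 16056 genes with at least 10 normalised counts in at least 2 libraries. A gene was called, and is said to have risen or fallen, where the two-sided p, adjusted by Benjamini and Hochberg's method across these genes, was under 0.05. Errors after ± are standard errors and intervals are 95%. On simulated data for ETO against Control over 16056 genes, 69.6% of genes changed 2-fold and 86.8% of genes changed 4-fold were recovered. Few genes were changed in the simulation, where 60.8% were called in the data. Its added spread was set below the observed one, with counting error on top. These rates are therefore not the power of the real comparison. The members and lists were chosen with earlier results of these data known. Besides the members, the genes named are Kat8, up to 4 called genes per list and comparison with the smallest adjusted p, and every tested repressor. Also named are the 3 genes most like Cdh1, Cdh2, Epcam and Cldn6 (mean of at least 50), and neighbours. The row of Ctnnb1 in ETO and the cell type markers were named after their values were seen. Positions are from GENCODE on GRCm38. Floors cover counting error only. Alternatives were other scalings, pseudocounts and filters, FPKM, a fit per experiment, a replicate block, and leaving out each library. 1 gene that this rule names is not reported here.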

Additional observations from a re-analysis of the deposited data

How the results depend on the processing

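With 2 libraries a group, changes in genes near the floor are poorly resolved, and 106 of 171 named calls kept their side of the threshold under every alternative. Of the comparisons of the 10 members under the alternatives, 908 kept their side of the threshold, 17 lost and 15 gained a call, and none of the called ones changed sign. The other listed genes (junction components, regulators and sheddases) rising in Mof-KO against WT (40) became 19 with total signal and 15 in FPKM, and those falling (6) became 11 and 3. In FPKM the falling count in Released against ETO was 29 in place of 46, the rising and falling counts in Released against Control were 4 and 1 in place of 19 and 6, and 2 members were called there in place of 4. Without Control replicate 2 this last count was 2 as well. The rising count for the difference between the Mof-KO and ETO changes was 14 with total signal in place of 29. The cause of these shifts was not tested. Total signal as the scale shifted the log2 differences by -0.17 in Mof-KO against WT, 0.17 in ETO against Control and -0.13 in Released against ETO, and median-of-ratios factors by 0.10 in ETO against Control. Fn1 in Released against ETO changed sign in FPKM, from -0.22 to 0.00022. Leaving out each library in turn gave 30 to 39 rising, 4 to 7 falling and 4 to 5 members called in Mof-KO against WT; 45 to 50, 19 to 24 and 7 to 9 in ETO against Control; 22 to 26, 40 to 47 and 6 in Released against ETO; 10 to 25, 3 to 7 and 2 to 4 in Released against Control; and 25 to 29, 30 to 37 and 8 for the difference. Same-numbered libraries did not deviate together (r from -0.04 to 0.08 over 16056 genes), so the numbers were not taken as pairs; with a replicate block 43 rose and 7 fell in Mof-KO against WT, 50 and 24 in ETO against Control, 26 and 46 in Released against ETO, 25 and 9 in Released against Control, and 31 and 36 for the difference, with 6, 10, 7, 5 and 8 members called, the added ones being Epcam and Nectin2 in the first, Cdh1 in the second and Nectin2 in both Released comparisons.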
